A study of Musca domestica with 10 samples.

Results

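In house fly embryos, 450 of the 15803 counted genes were abundant at the start of the series, were still present when the blastoderm became cellular and were low by gastrula. They were chosen by their measured levels. A gene belonged to the group if it stood at 20 CPM (counts scaled to 1000000 gene reads) or more in both syncytial blastoderm libraries and at 0.25 of the lower of these values or more in at least 1 cellular blastoderm library. It also had to be below 0.25 of that value in both gastrula libraries, at 1 CPM or more in at least 1 dorsal closure library, and below 0.5 of that value in at least 1 dorsal closure library. The levels at these 4 stages are therefore a description, and the germ band extension libraries are the ones that took no part in the choice.

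The samples were whole Musca domestica embryos collected from syncytial blastoderm, when nuclei divide without cell membranes, through cellular blastoderm, gastrula and germ band extension up to dorsal closure, when the flanks of the embryo meet. Each stage had 2 biological replicates, each a pool of 100 embryos, and the labels name no strain, genotype, treatment or age in hours. In such bulk samples, fewer cells of a type and less RNA per cell cannot be told apart. The genes carry MDOA identifiers that the files do not pair with names, and 0 of them matched the RefSeq gene table used here, so the genes are followed by identifier and no function or sequence is given.

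An animal embryo begins development on messenger RNA that the mother loaded into the egg. In the maternal-to-zygotic transition these transcripts are degraded while the embryo's own genome is switched on. In Drosophila melanogaster, a relative of the house fly, degradation is known to come in waves: an early one run by maternal factors such as the RNA-binding protein Smaug, and a later one that needs zygotic products, among them microRNAs of the miR-309 cluster. No unfertilised eggs were sampled here, so whether RNA present at syncytial blastoderm came from the mother was not tested.

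The libraries held 16288442 to 83604709 gene reads, the fewest in syncytial blastoderm replicate 1, and a count of 3 corresponded to 0.0359 to 0.184 CPM. Every one of the 450 genes had at least 334 counts in each syncytial blastoderm library, so the starting levels are well covered. At the later stages the lowest count of any member was 0 in a gastrula library, 3 in a germ band extension library and 1 in a dorsal closure library. All 450 passed the filter on low counts among the 11286 genes tested. The rule's floor at syncytial blastoderm secured this pass as well as the starting counts, so neither is a result. Gene counts relative to a library's total cannot show how much RNA an embryo held.

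Of the 5435 genes that stood at 20 CPM or more in both syncytial blastoderm libraries, the 450 made up 8.28%. Another 4702 had at least 1 gastrula library at 0.25 of the starting value or more. In 128 genes the level had dropped under that fraction in both cellular blastoderm libraries already, with the same conditions at dorsal closure; these are called early-loss genes here. A further 86 shared the course up to gastrula but had both dorsal closure libraries at 0.5 of the starting value or more (later-return genes), and 14 were below 1 CPM in both dorsal closure libraries. Genes on either side of the limits were close to each other. The highest gastrula ratio inside the group was 0.2497 and the lowest outside it 0.25. At cellular blastoderm the nearest ratios were 0.25 inside and 0.2484 outside, and at syncytial blastoderm the nearest levels were 20.51 and 19.66 CPM. At dorsal closure they were 1.073 and 0.9002 CPM for the lower limit, and ratios of 0.4935 and 0.5002 for the upper one. The size of the group moved with the scaling. On library sizes scaled by TMM (a trimmed mean of gene ratios between libraries) the same rule found 265 genes, 233 of them among the 450, and on DESeq2's size factors it found 205, of which 179 were shared. Without gastrula replicate 1 it found 766.

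The 450 genes lost most of their share of the messenger RNA pool within the first 3 stages. They took 6.41% and 7.12% of the gene reads in the syncytial blastoderm libraries (replicate 1, then replicate 2, as in all pairs of values below). At cellular blastoderm they took 1.86% and 2.87%, and at gastrula 0.664% and 0.623%. Their share was 0.738% and 0.745% during germ band extension, and by dorsal closure it was 1.32% and 1.03%. The share was thus lowest at gastrula and germ band extension, and at dorsal closure it was above those libraries while far below the start.

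**Figure D1:**
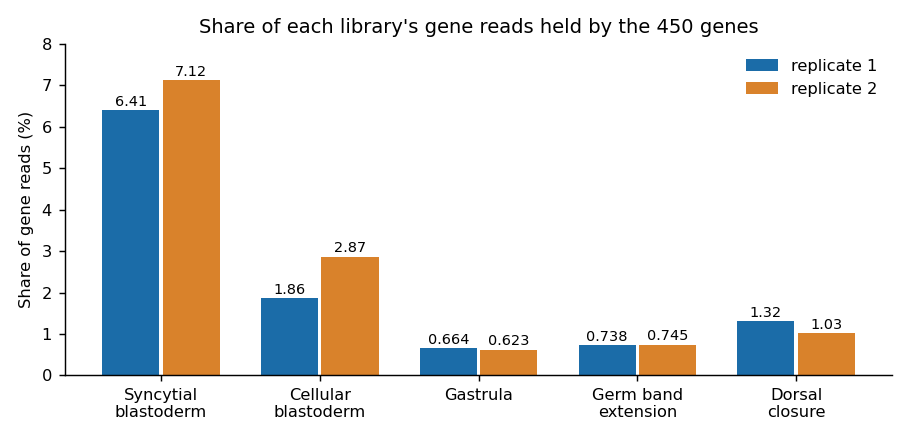
Share of each library's gene reads held by the 450 genes (vertical axis, percent) at the 5 stages, with a bar for each replicate. The bars start at 6.41% and 7.12% for syncytial blastoderm, are 0.664% and 0.623% for gastrula and stand at 1.32% and 1.03% at dorsal closure.

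The median level of the genes was 87.8 and 85.5 CPM in syncytial embryos and 23.9 and 35.9 CPM in cellular blastoderm embryos. It was 8.86 and 7.58 CPM in gastrulae, 10.7 and 7.68 CPM during germ band extension, and 16.6 and 10.2 CPM during dorsal closure. Low did not mean absent. At gastrula 438 of the 450 genes were still at 1 CPM or more in both libraries and 157 at 10 CPM or more in both. Both gastrula libraries were below 1 CPM in 5 genes, MDOA001382, MDOA003808, MDOA008563, MDOA010571 and MDOA013551, the last of which had a count of 0 in replicate 1. A drop under 0.1 of the lower starting value in both gastrula libraries was seen in 122 genes.

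**Figure D2:**
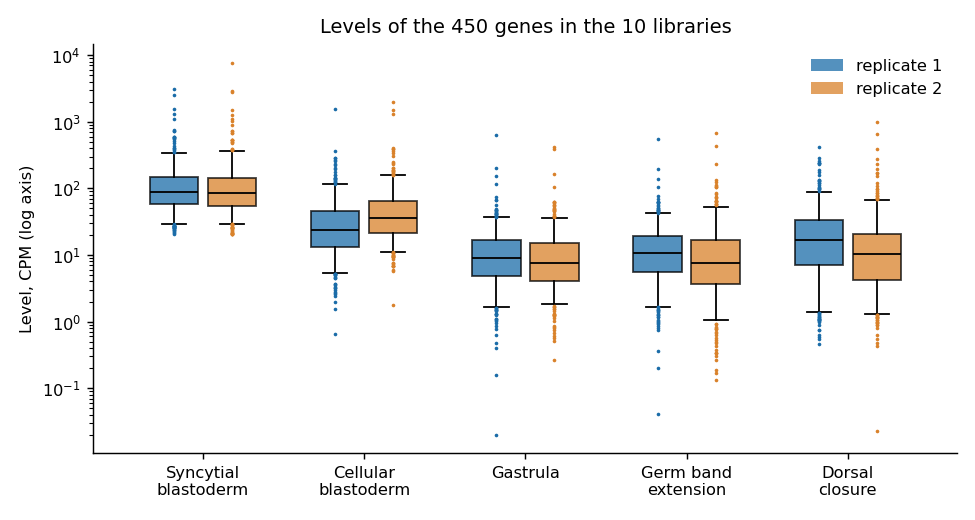
Levels of the 450 genes in each library, in CPM on a log axis; boxes span the quartiles with the median as a line, whiskers the 5th to 95th percentile, and points the genes beyond them, with the single value of 0 drawn at 0.02 CPM. The medians start at 87.8 and 85.5 CPM in syncytial embryos, pass 8.86 and 7.58 CPM in gastrulae and end at 16.6 and 10.2 CPM during dorsal closure.

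The fall was spread over 2 steps rather than held back until gastrula. In 417 of the 450 genes both cellular blastoderm libraries were below both syncytial blastoderm libraries, in 33 they overlapped, and in 0 both were above. The share of 92.7% stands beside 39.2% of the genes abundant at the start and 19% of all counted genes. The mean level at cellular blastoderm was under 0.5 of the starting mean in 366 genes. The name given to the group, transcripts cleared only by gastrula, thus holds for the level reached and not for the start of the fall. From cellular blastoderm to gastrula the libraries separated again, with both gastrula values below both cellular blastoderm values in 404 genes (89.8%), against 33.4% of the genes abundant at the start and 15.6% of all. These steps were fixed in part by the rule and were not tested. On TMM-scaled levels both cellular blastoderm libraries were below both syncytial ones in 368 genes, and both gastrula libraries were below both cellular blastoderm ones in 387. On the same scaling these counts were 1502 and 1499 of the 5435 genes abundant at the start.

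The replicates differed in how much of the fall lay in the first step. In replicate 1 the median gene stood at 0.263 of its syncytial level by cellular blastoderm, and a median of 55.8% of its log2 fall to gastrula had taken place. In replicate 2 the median was at 0.414, with 34.9% of the fall completed. By gastrula the series were close, at median ratios of 0.105 and 0.101. Both cellular blastoderm libraries met the 0.25 limit in 285 genes, replicate 2 alone in 148 and replicate 1 alone in 17. Replicate 2 was the higher of the pair in 351 of the 450 genes (78%) and in 98 of the 128 early-loss genes (76.6%), against 2782 of the 5435 genes abundant at the start (51.2%). Both sets were chosen on these cellular blastoderm libraries, so the comparison is a description. Across 449 of the genes without a count of 0, the cellular over syncytial ratios of the series were related at a Spearman rho of 0.53, and the gastrula ratios at 0.71; genes are not independent replicates, and each series shares its own denominator library.

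**Figure D3:**
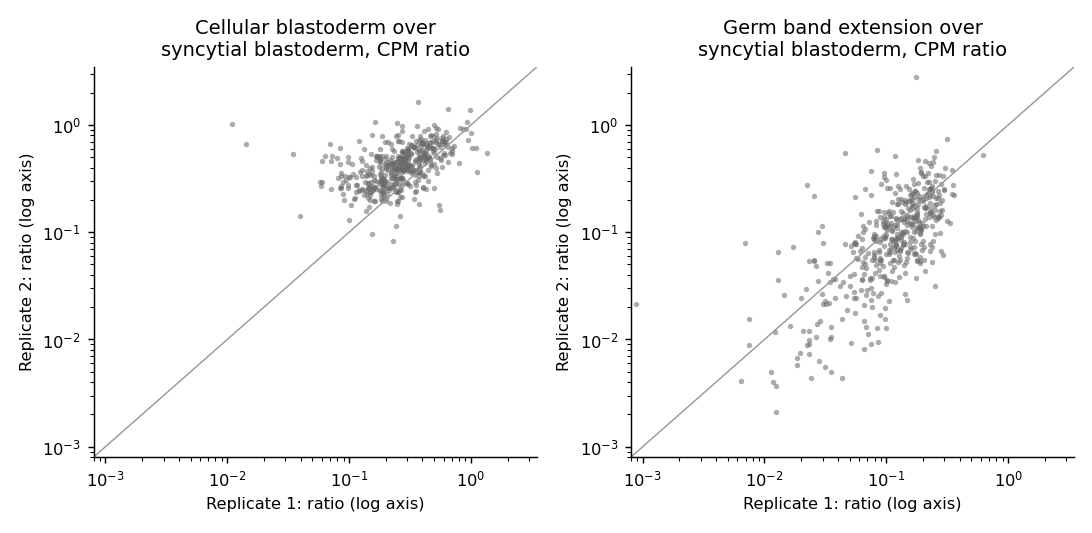
Level relative to syncytial blastoderm of the same replicate number for each of the 450 genes, replicate 1 on the horizontal and replicate 2 on the vertical log axis, at cellular blastoderm (left) and germ band extension (right); the line marks equal ratios. At cellular blastoderm most points lie above the line, with medians of 0.263 and 0.414, and at germ band extension the medians are 0.12 and 0.0931.

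The most abundant members, MDOA014323 and MDOA004611, showed different courses. MDOA014323 stood at 2484 and 7719 CPM in syncytial embryos, 364 and 1317 CPM in cellular blastoderm embryos, and 202 and 386 CPM in gastrulae. It was at 196.5 and 669.6 CPM during germ band extension and 284 and 644 CPM during dorsal closure. Replicate 2 was higher at every stage, and the 3701 CPM SD around its starting mean of 5101 CPM (n = 2) was the spread between the pools. MDOA004611 stood at 3130 and 2813 CPM, then at 1541 and 1979 CPM in cellular blastoderm embryos, and at 632 and 410 CPM in gastrulae. It was at 559 and 432 CPM during germ band extension and 186 and 279 CPM during dorsal closure, each later stage lying below both starting values. The 10 most abundant members held 19.8% and 28% of the group's reads at syncytial blastoderm.

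By the ratio of the higher gastrula value to the lower starting value, the deepest losses were those of MDOA010655 and MDOA003808. On means, other genes, among them MDOA013551 with its count of 0, lost more than MDOA003808. MDOA010655 went from 182 and 221 CPM in syncytial embryos to 20.8 and 60.3 CPM in cellular blastoderm embryos and 0.78 and 1.03 CPM in gastrulae, a 222-fold difference between the first and last of these means. It stayed at 1.17 and 0.91 CPM during germ band extension and was at 8.53 and 4.3 CPM during dorsal closure. MDOA003808 went from 27.1 and 29.8 CPM to 2.4 and 6.77 CPM and then to 0.159 and 0.264 CPM in gastrulae, values that rest on 12 and 13 counts. It was at 0.202 and 0.265 CPM during germ band extension and at 3.63 and 0.428 CPM during dorsal closure, where the libraries were far apart.

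In contrast, MDOA013043 and MDOA006663 stood near their starting level at cellular blastoderm. MDOA013043 stood at 25 and 22.3 CPM in syncytial embryos and at 24.4 and 30.6 CPM in cellular blastoderm embryos, and only then went to 3.28 and 2.6 CPM. It ended at 1.46 and 1.19 CPM during dorsal closure. MDOA006663 stood at 91.4 and 88.7 CPM and at 85.3 and 93.9 CPM at the blastoderm stages, so that the groups overlapped, and at 20.2 and 11.1 CPM in gastrulae. It was at 18.6 and 15.1 CPM during germ band extension and 12.1 and 9.95 CPM during dorsal closure. These 2 genes had the highest ratios of the lower cellular to the higher syncytial blastoderm value in the group.

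Germ band extension, which played no part in choosing the genes, answers whether the low level lasted. In both of its libraries 323 of the 450 genes (71.8%) were below 0.25 of the lower starting value, and in both 104 genes were below 0.1 of it. Another 56 genes were at 0.25 or more in replicate 1 alone, 49 in replicate 2 alone and 22 in both. The share of low genes rested on both gastrula libraries: when the rule was applied without gastrula replicate 1 it was 44.9% (344 of 766 genes), and without replicate 2 it was 60.4% (355 of 588). The same count was 98 of 128 early-loss genes (76.6%), 35 of 86 later-return genes (40.7%) and 87 of the 4702 genes kept at gastrula (1.85%). Over all 5435 genes abundant at the start it was 590 (10.9%). These shares are descriptive; the sets were chosen by the neighbouring stages.

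Against syncytial blastoderm, germ band extension levels were lower for nearly the whole group. Both libraries were below both starting values in 449 of the 450 genes, the exception being MDOA015172. The same held for 2802 of the 5435 genes abundant at the start (51.6%) and for 22.8% of all counted genes. By edgeR's quasi-likelihood test at a Benjamini-Hochberg adjusted p under 0.05, 293 of the 450 genes fell (65.1%) and 0 rose, against 5.54% of all 11286 tested genes called lower. With the replicate number as a block, 430 fell (95.6%), against 14.5% of all genes, and the 293 were all among them. The starting level had been chosen to be high, so this share carries the choice on one side. The rule also held the neighbouring stages, with gastrula low and dorsal closure bounded. The direction and share of these calls therefore follow in part from the choice and are a description. The median log2 fold change of the group was -2.76 (quartiles -3.58 and -2.12), beside 0.23 for all tested genes. With DESeq2's size factors these medians were -2.52 and 0.47, and on total counts -3.14 and -0.05. The count of falls was 104 and 79 without syncytial blastoderm replicate 1 and 2, while it was 151 when germ band extension replicate 1 was left out and 109 when replicate 2 was.

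Among the named genes the falls from syncytial blastoderm to germ band extension spanned a wide range. The genes given here were named by their levels at syncytial blastoderm or, for MDOA008563, at germ band extension. The size of a fall and its p-value thus carry that choice and are a description. MDOA010655 fell by 7.22 ± 0.8 on the log2 scale (SE, edgeR adjusted p = 0.0012) and MDOA008563 by 6.77 ± 0.83 (edgeR adjusted p = 0.0016), both lower in each library of the later stage. MDOA004611 fell by 2.19 ± 0.46 (edgeR adjusted p = 0.014), and MDOA006663 by 2.03 ± 0.44 (edgeR adjusted p = 0.018). The most abundant gene, MDOA014323, had a fitted log2 change of -3.15 ± 1.04 that did not pass without the block (edgeR adjusted p = 0.076) and did with it (0.00018). Over the alternatives, the adjusted p ranged up to 0.015 for MDOA010655, 0.018 for MDOA008563, 0.097 for MDOA004611 and 0.1 for MDOA006663. It ran from 8.4e-05 to 0.35 for MDOA014323.

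From gastrula to germ band extension no direction was shared by the genes. Of the 450, 0 were called higher and 0 lower in edgeR, with and without the block, as were 0% of all genes in either direction. At an unadjusted p under 0.05 stood 9 members above and 9 below, or 21 and 22 with the block. Over all 11286 tested genes these counts were 514 and 59, or 774 and 316 with the block. DESeq2 called 3 members higher, MDOA001529, MDOA006540 and MDOA012298, and 1.78% of the 9535 genes to which it gave an adjusted p. The gastrula level had been chosen to be low, so one side of this comparison was fixed as well. The group's median log2 fold change was 0.01, beside 0 for all genes. On total counts both germ band extension libraries were above both gastrula libraries in 110 genes (24.4%) and below in 57 (12.7%). Over the genes abundant at the start these shares were 12% and 11.3%, and over all counted genes 14.7% and 6.9%. On TMM-scaled levels the split was 75 and 84 in the group and 408 and 1038 in the 5435 genes abundant at the start, so the balance turned with the scaling. The replicates differed: in replicate 1 a rise of 2-fold or more was seen in 26 genes and a fall of that size in 1, whereas replicate 2 had 68 and 82.

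The genes with the largest fitted changes at this step, of those with at least 10 counts in each library and the same direction in both replicates, did not pass the test. MDOA015172 stood at 1.79 and 5.78 CPM in gastrulae and 5.99 and 104 CPM during germ band extension, after 34.4 and 37 CPM at the start, and at 11.3 and 85.3 CPM during dorsal closure. The fitted log2 difference was 3.77 ± 1.51 (SE, edgeR adjusted p = 0.91), and replicate 2 carried most of it. MDOA006540 stood at 1.55 and 0.568 CPM and then at 7.84 and 4.57 CPM, so that the groups did not overlap, and the fitted log2 difference was 2.44 ± 0.8 (edgeR adjusted p = 0.88). On the other side, MDOA011344 stood at 17.8 and 21.6 CPM in gastrulae and at 7.56 and 2.44 CPM during germ band extension (log2 fold change -2.19 ± 0.64, edgeR adjusted p = 0.88). MDOA014143 stood at 7.59 and 30.4 CPM and then at 4.92 and 7.49 CPM, which overlapped (log2 fold change -1.80 ± 0.77, edgeR adjusted p = 0.96). Over the alternatives the lowest adjusted p of these genes was 0.11, 0.047, 0.055 and 0.4, in the order given.

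From germ band extension to dorsal closure 34 of the 450 rose (7.56%) and 24 fell (5.33%), against 9.6% of all tested genes called higher and 7.55% called lower. Both shares are below those over all genes. With the replicate block 99 rose (22%) and 55 fell (12.2%), against 20.1% of all genes in each direction. Neither share of calls is read as particular to the group. On total counts both dorsal closure libraries were above both germ band extension libraries in 154 genes (34.2%) and below in 87 (19.3%). Over the genes abundant at the start these shares were 15.1% and 38.4%, and over all counted genes 25.9% and 19.2%. Beside the genes abundant at the start, the group thus held more rises and fewer falls. The group's median log2 fold change was 0.40, beside 0.01 for all genes, and the rule bore on both directions. Its upper limit at dorsal closure kept out 86 genes with a later return, and its lower limit kept out 14 genes that were below 1 CPM by then, so the shares of rises and falls were fixed in part by the choice. Scaling by DESeq2's size factors gave 60 higher and 15 lower, and moved the medians to 0.78 and 0.39. Leaving out germ band extension replicate 1 gave 9 rises and 4 falls, and leaving out its replicate 2 gave 21 and 11. Leaving out dorsal closure replicate 1 gave 8 rises and 3 falls, with medians of 0.06 for the group and -0.17 for all genes, and leaving out replicate 2 gave 62 and 15. The falls also numbered 13 and 12 without syncytial blastoderm replicate 1 and 2.

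**Figure D4:**
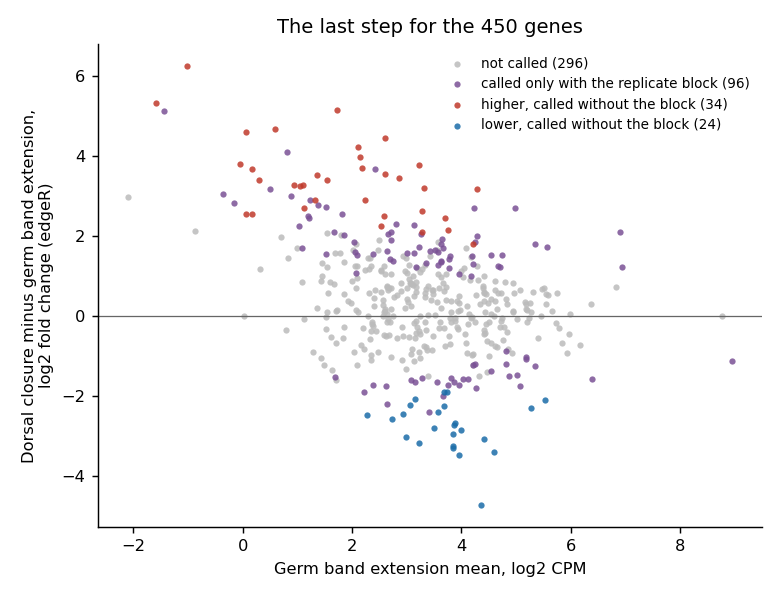
Fitted log2 fold change from germ band extension to dorsal closure (vertical axis, edgeR) against the mean log2 CPM during germ band extension (horizontal axis) for each of the 450 genes, coloured by call. The 34 genes called higher lie mostly toward the left, at low germ band extension levels, and the 24 called lower lie in the middle of the range. The germ band extension level enters both axes, so this placing is in part built in. In neither fit were 296 genes called.

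The 34 genes that rose had been at a few CPM before. Their median levels were 89.4 and 76.9 CPM in syncytial embryos, 4.81 and 3.68 CPM in gastrulae and 3.84 and 2.54 CPM during germ band extension, and 53.9 and 18.3 CPM during dorsal closure. The 24 genes that fell had medians of 14.6 and 15.1 CPM in gastrulae, 15.4 and 9.97 CPM during germ band extension, and 1.74 and 2.03 CPM during dorsal closure. The calls compare dorsal closure with germ band extension, so the levels at both stages bore on which genes were called. The medians are therefore a description.

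Among genes with at least 10 counts in every library of these stages and the same direction in both replicates, MDOA008563 and MDOA006726 had the largest rises. MDOA008563 stood at 32 and 61.5 CPM in syncytial embryos, 12 and 11.2 CPM in cellular blastoderm embryos and 0.635 and 0.75 CPM in gastrulae. It was lower still at germ band extension, at 0.364 and 0.303 CPM, and reached 17.4 and 10.5 CPM during dorsal closure (log2 fold change 5.33 ± 0.78, SE, edgeR adjusted p = 0.0071). MDOA006726 went from 175 and 280 CPM through 18.6 and 121.6 CPM in cellular blastoderm embryos to 2.35 and 2.88 CPM in gastrulae. It stood at 2.86 and 3.73 CPM during germ band extension and 75.3 and 167.6 CPM during dorsal closure (log2 fold change 5.17 ± 1.0, edgeR adjusted p = 0.014). Both dorsal closure values of each gene were above both germ band extension values. The adjusted p of MDOA006726 was 0.084 without germ band extension replicate 1, and over the alternatives that of MDOA008563 ranged up to 0.049.

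Under the same conditions MDOA000769 and MDOA015200 had the largest falls. MDOA000769 went from 168 and 195 CPM in syncytial embryos to 63.3 and 70.9 CPM in cellular blastoderm embryos and 28.6 and 32.9 CPM in gastrulae. It stood at 30.2 and 10.6 CPM during germ band extension and 1.09 and 0.473 CPM during dorsal closure (log2 fold change -4.71 ± 0.66, SE, edgeR adjusted p = 0.0067). MDOA015200 went from 339.6 and 303.6 CPM to 64.9 and 81.8 CPM and then to 17.5 and 18.8 CPM in gastrulae. It stood at 18.6 and 12.3 CPM during germ band extension and 1.06 and 1.76 CPM during dorsal closure (log2 fold change -3.46 ± 0.5, edgeR adjusted p = 0.0071). In both genes the groups did not overlap at this step, and in edgeR on only the libraries of these stages the adjusted p was 0.062 and 0.096.

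**Figure D5:**
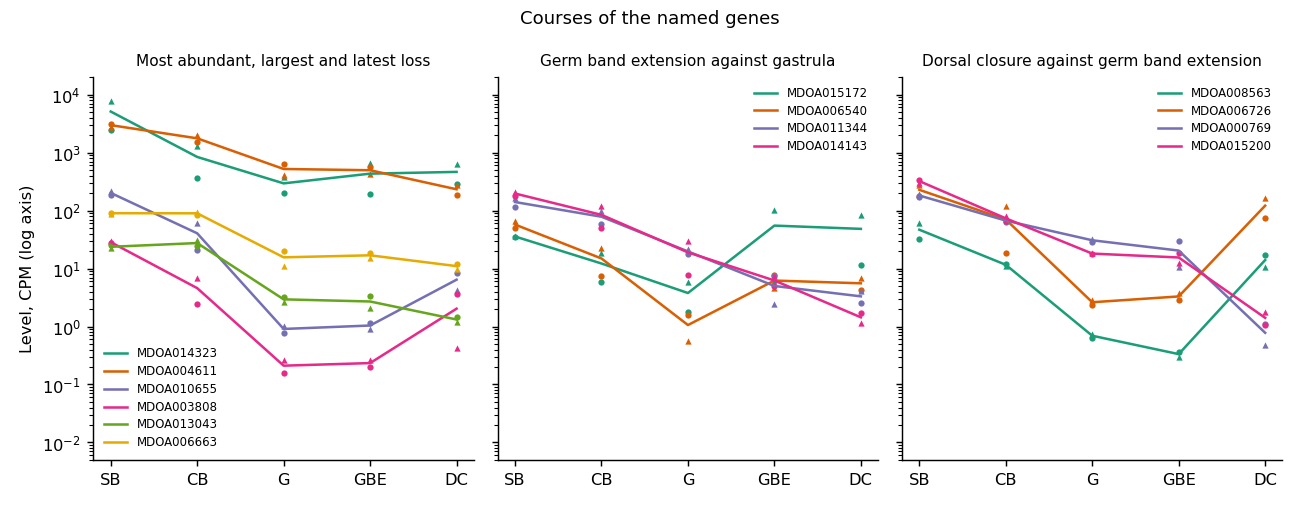
Levels of the 14 genes named by rule at syncytial blastoderm (SB), cellular blastoderm (CB), gastrula (G), germ band extension (GBE) and dorsal closure (DC), in CPM on a log axis; lines join the means, circles are replicate 1 and triangles replicate 2. In the right panel MDOA008563 and MDOA006726 turn upward after germ band extension, to 17.4 and 10.5 CPM and to 75.3 and 167.6 CPM, while MDOA000769 and MDOA015200 drop below 2 CPM.

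Read over the late stages together, no class held most of the genes, and the largest class stayed low. In 178 of the 450 genes (39.6%) all 4 libraries of germ band extension and dorsal closure were below 0.25 of the lower starting value. Low at germ band extension but back at that fraction or more in both dorsal closure libraries were 61 genes, and 84 more were back in 1 of them. Of the 127 genes with a germ band extension library at the fraction or more, 34 were below it in both dorsal closure libraries. The remaining 93 were at it or more in at least 1 dorsal closure library. At dorsal closure 115 genes had a library at 0.5 of the starting value or more, replicate 1 in 81 of them and replicate 2 in 34. The rule let no gene reach that level in both. A library at or above the starting value itself was seen in 23 genes. Replicate 1 was the higher dorsal closure library for most of the group, with replicate 2 above it in 131 genes (29.1%). The dorsal closure medians of all 5435 genes abundant at the start leaned the same way, at 36.3 and 29.4 CPM, beside 16.6 and 10.2 CPM in the group. The count itself was not made over those 5435 genes, so whether the lean is particular to the group was not tested. These classes were drawn after the values had been seen, and the rule's limits at dorsal closure bore on them. The same classes were not counted over the other genes.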

How the data were processed

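Whole-embryo RNA of 10 libraries (5 stages, 2 replicates each) was read as paired reads of 100 bp with a 200 bp insert, per the labels' protocols. Each deposited file is a list of raw counts per gene from 1 library. STAR and HTSeq appear in the submitters' processing notes; tool versions, genome build, annotation and strand setting: not given in the sources used here. Overlapping, antisense and near-identical genes may therefore share or lose reads. The 5 closing rows (no gene 10.5% to 25%, multiple places 5.31% to 10.7%, ambiguous 0.353% to 0.661% of reads) were left out.

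CPM are counts over a library's gene total. Tests used R 4.3.3 and edgeR 4.0.16: filterByExpr by stage, TMM, robust quasi-likelihood fits to all libraries with 1 coefficient per stage (5 residual degrees of freedom), Benjamini-Hochberg adjustment over 11286 genes, calls at 0.05. The standard error is the unshrunken change over the square root of F. P-values measure the spread between pools. Labels do not say what a replicate number shares, but replicate differences correlated between stages in all 10 pairs of stages (r from 0.321 to 0.608, above the 0.1 set for pairing), so a block was fitted as well (4 degrees of freedom). DESeq2 was version 1.42.0. On simulated data only the edgeR fit without the block was tried, for germ band extension against syncytial blastoderm. The simulated counts had no shared effect of the replicate number.

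Genes were named by rule: per set, the 2 most abundant at the start, the 2 with the largest and the 2 with the latest loss, and at each of the last steps the 2 highest and 2 lowest fitted changes with at least 10 counts per library and the same direction in both replicates. Others named were chosen after their values were seen. The members and lists were chosen with earlier results of these data known.

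Alternatives were other scalings (DESeq2's size factors, total counts), no filter on low counts, DESeq2, a fit to only the stages compared, the block, other floors and fractions in the rule, and leaving out each library, which assumes that the remaining library of that stage varies like the others and keeps the tested genes. The fits with the block and another scaling together were added after seeing the data. Gene lists could not be used, since no identifier matched a named gene.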

Additional observations from a re-analysis of the deposited data

How the results depend on the processing

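The rule found 450 genes, and 323 of them were low in both germ band extension libraries. These counts were 265 and 210 on TMM-scaled levels, 205 and 161 on DESeq2's size factors, and 285 and 197 when both cellular blastoderm libraries had to be at the fraction. Other floors and fractions kept both within 1.5 times (368 to 584 genes, and 269 to 444 low ones). Leaving out a library in turn gave 302 to 766 genes, the most without gastrula replicate 1, and 209 to 452 low ones, the fewest without cellular blastoderm replicate 2. As a share, low genes were 71.8% of the group, 79.2% with TMM, 78.5% with DESeq2's size factors and 44.9% to 84.2% without a library, the lowest without gastrula replicate 1.

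Of the falls from syncytial blastoderm to germ band extension (293), 262 to 430 were called under the other planned settings and 79 to 324 without a library. The replicate block gave 430, and, in fits chosen after seeing the data, 446 together with total counts and 418 with DESeq2's size factors. From gastrula to germ band extension DESeq2 called 3 and all other fits 0. From germ band extension to dorsal closure 58 genes changed: 154 with the block, 155 with the block and total counts, 182 with the block and DESeq2's size factors, 152 in DESeq2 (121 higher and 31 lower), 7 in the fit to only these stages, and 11 to 77 without a library. The cause of these shifts was not tested. Rises were 58.6% of the calls and 80% with DESeq2's size factors. That scaling moved the median log2 fold change of all tested genes from 0.01 to 0.39, and that of the group from 0.4 to 0.78. The larger share of rises is therefore not read as particular to the group. Among the named genes the block made calls of falls for MDOA014323 (above) and, at dorsal closure, for MDOA004611 (edgeR adjusted p = 0.11, with the block 0.024) and MDOA014143 (0.083, with the block 0.02), and changed no other call. No named gene that was called changed its direction. In the shallowest library 3 counts are 0.184 CPM, and levels near this rest on few reads.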

Other observations

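The most abundant genes of the group had the lowest ratios at every later stage. The 16 genes with a starting mean of 500 CPM or more stood at a median of 0.225 of it at cellular blastoderm, 0.0551 at gastrula and 0.0385 at dorsal closure. The 84 genes between 20 and 50 CPM stood at 0.343, 0.103 and 0.19. The 175 genes between 50 and 100 CPM, at 0.366, 0.109 and 0.196, were close to the latter. Between 100 and 500 CPM, 175 genes stood at 0.334, 0.106 and 0.141. A high starting value lowers a ratio to it. The rule's limit of 1 CPM at dorsal closure also bounds the ratio there more tightly for genes with a low start. The order is therefore a description of these libraries and was not tested.

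MDOA012298 was measured higher at germ band extension than at the stages on either side, but the rise did not pass in edgeR. It stood at 67.7 and 68 CPM in syncytial embryos, 30.2 and 32.6 CPM in cellular blastoderm embryos and 12.5 and 8.4 CPM in gastrulae. It then stood at 42.1 and 35.8 CPM during germ band extension, above both gastrula values (edgeR adjusted p = 0.88), and fell to 7.13 and 9.07 CPM during dorsal closure (edgeR adjusted p = 0.017). It was chosen after its values were seen, those at germ band extension among them, so the p-value of the fall carries that choice.

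MDOA013551 differed between the replicate numbers at 4 of the stages. It stood at 46 and 32.7 CPM in syncytial embryos, but at 0.658 and 21.9 CPM in cellular blastoderm embryos, 0 and 0.507 CPM in gastrulae, 0.0405 and 0.701 CPM during germ band extension and 0.752 and 26.7 CPM during dorsal closure. The gastrula counts were 0 and 25.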
